A study of Mus musculus with 282 samples.

Results

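On 1 of the 3 plates, 68 single bone marrow progenitors treated with the cytokine TNF fell on both sides of 8000 detected genes: 24 had fewer and 44 had at least that many. They were 68 of the 238 cells in the authors' cell tables and of 282 samples in all, and are called low and rich cells below. The members were chosen by the measured number of detected genes, counted as features with at least 1 read with spike-ins left out, so detected genes and the reads behind them are described here and not tested. Low cells ranged from 3672 to 7813 detected genes with a median of 5399, and rich cells from 8313 to 10915 with a median of 9980. The closest cells under the line had 7735 and 7813 detected genes, and the closest above it had 8313 and 8519.

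All cells were granulocyte-monocyte progenitors (GMPs) of male and female mice 12 to 19 weeks old, homozygous for GFP-p65 and heterozygous for H2BmCherry, kept 8 h under a confocal microscope. The cell tables call the stimulus TNF or blank, and blank is read here as no added cytokine, with 20 blank cells on the same plate. Cells were picked 1 by 1 with a micromanipulator into cold lysis buffer and made into libraries by an adapted Smart-Seq2 protocol. The labels do not tie a cell to an animal or a culture, so each group counts as 1 sample, no test between groups was possible, and values are given as the lowest, median and highest cell.

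GMPs are progenitors whose progeny are granulocytes and monocytes. TNF binds its receptor and releases the transcription factor NfkB, of which p65 is a subunit, into the nucleus, where it switches on genes of inflammation and of cell survival. Spike-ins are synthetic RNAs of known makeup mixed into a reaction. When they are added in equal amount, the reads of a cell per spike-in read follow the amount of its RNA that was converted and amplified. Dying, damaged or poorly lysed cells are known to give few detected genes, and so are small or quiescent cells and failed reactions.

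The comparison asks whether the low cells carried signs of death, of stress or of another cell state. Such signs are usually read from named genes: mitochondrial transcripts, stress genes, and markers of other cell types. The files name features only by Ensembl identifier, and 0 of 55450 identifiers were found in the reference gene table. Mitochondrial share, ribosomal protein share, death and stress lists and cell type markers were therefore not analysed here, and the label GMP was not checked against its markers. What follows rests on features known by identifier, on spike-ins, on sets built from other plates, and on the authors' own classes.

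Cells under 8000 detected genes were frequent among TNF cells of this plate. They made up 24 of 68 of them, or 35.3% (exact 95% interval 24.1 to 47.8%; such intervals cover counting error only). On Plate1 of the same experiment, 0 of 59 TNF cells were under the line, which allows a share of up to 6.06%, and in the other experiment 0 of 51, which allows up to 6.98%. Among blank cells, 2 of 20 on Plate2, 0 of 24 on Plate1 and 2 of 16 in the other experiment were under it. These shares cover only cells kept in the authors' cell tables. The 7 wells of Plate1 left out of them had 719 to 3230 detected genes, median 1598. The 29 left out in the other experiment had 460 to 11028, median 3763, and the 8 of Plate2 had 671 to 9568. What this selection contributed to the difference between plates was not tested.

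Low cells had fewer reads. Gene reads ran from 182301 to 1247074 per low cell with a median of 380389, and from 697182 to 2553337 per rich cell with a median of 1851366, 4.87 times the low median. The groups overlapped in this measure, with 19 of 24 low cells under the lowest rich cell. Where their read numbers overlapped, from 697182 to 1247074, the 5 low cells still had 5030 to 7813 detected genes and the 6 rich cells 8313 to 10185. With every cell thinned to 200000 gene reads, the 23 low cells deep enough had 3566 to 6644 detected genes, median 4836, and the 44 rich cells 6767 to 9245, median 8413. The 2 groups did not overlap at this equal depth.

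**Figure D1:**
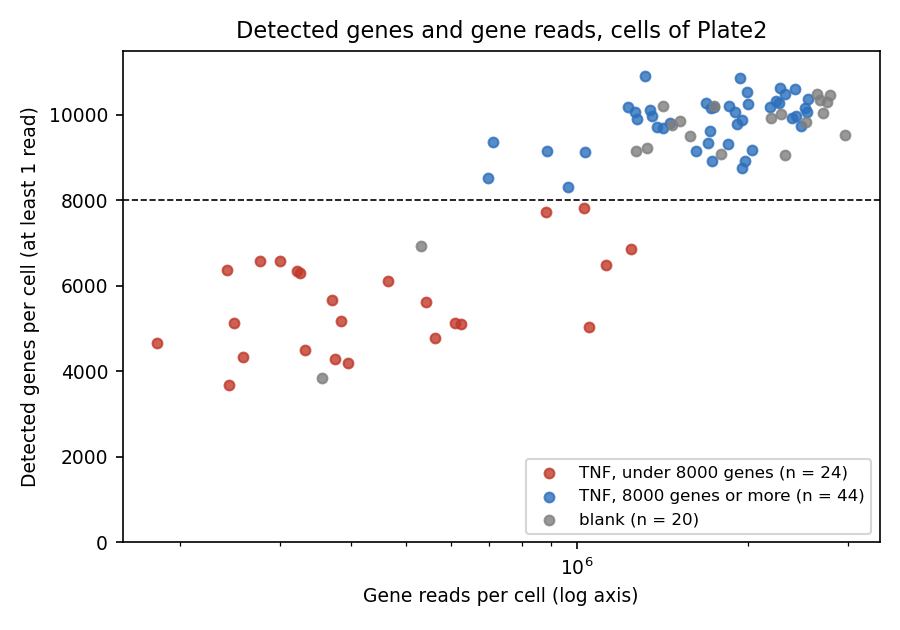
Detected genes (vertical axis) against gene reads per cell (horizontal log axis) for the cells of Plate2. Each point is 1 cell, coloured by group, and the dashed line is 8000 genes. Between 697182 and 1247074 gene reads both groups are present, and low cells lie below rich cells there.

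Spike-ins took a larger share of the reads of low cells. The spike-in share of all reads ran from 0.866 to 14.6% in low cells with a median of 7.62%, and from 0.565 to 6.50% in rich cells with a median of 1.27%. Blank cells of the plate had a median of 1.33%, close to the rich cells. The share exceeded that of every rich cell in 17 of 24 low cells and the rich median in 23 of 24. The spike-in reads themselves were not scarce: the median was 37060 per low cell and 24978 per rich cell, and a median of 38 spike-in species was read in both groups. A single low cell, in well F4, stood apart, with a spike-in share of 0.866%, 2113 spike-in reads and 241824 gene reads. Without it the low median was 7.70%.

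The reads of low cells were also concentrated in very few features. The single feature with most reads took 11.03 to 40.4% of the gene reads of a low cell, median 29.2%, and 2.09 to 30.03% of a rich cell, median 3.93%. The 50 leading features of each cell took a median of 70.9% in low cells and 21.6% in rich cells. The leading feature was ENSMUSG00000106106 in 24 of 24 low cells and in 42 of 44 rich cells.

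A set of 17 features, called dominant features here, held most of the reads of low cells. They were chosen after the values were seen, as features with at least 1000 CPM (gene reads scaled to 1e6 in all) in the summed low cells and at least 2-fold more than in the summed rich cells on the log2(CPM + 1) scale. All 17 were read in every low and every rich cell. Their summed share of gene reads was 27.9 to 84.2% in low cells, median 66.7%, and 5.45 to 54.6% in rich cells, median 11.2%. Blank cells of Plate2 had 7.13 to 49.9% with a median of 11.1%, TNF cells of Plate1 a median of 8.58%, and TNF cells of the other experiment a median of 6.68%. The choice of features fixes the direction between low and rich cells, so these shares are a description. Only 1 rich cell, in well C8, was above the lowest low cell.

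The most abundant dominant feature, ENSMUSG00000106106, was at 110341 to 404186 CPM in low cells, median 292363. In rich cells it was at 20893 to 300338 CPM, median 38789. Its summed level was 261466 CPM in low and 43835 CPM in rich cells, a log2 ratio of 2.58. ENSMUSG00000097971 was second, at 81741 CPM in the summed low cells and 18855 CPM in the summed rich cells, a log2 ratio of 2.12. It ranged widely from cell to cell, from 13224 to 136155 CPM in low cells and from 1815 to 51123 CPM in rich cells, so the groups overlapped. The identifiers are not paired with names in the files, so what these features encode is not given here.

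Per spike-in read, the dominant features spanned overlapping ranges in both groups, while all other features together were scarcer in low cells. The choice of the dominant features by CPM builds in part of this contrast, so it is described and not tested. Dominant features gave 3.82 to 31.96 reads per spike-in read in low cells, median 7.38, and 3.50 to 21.1 in rich cells, median 9.10. Blank cells had a median of 7.30. All other features together gave 2.04 to 82.5 reads per spike-in read in low cells, median 3.64, and 6.52 to 156 in rich cells, median 70.2, which is 19.3 times the low median. Of the 24 low cells, 19 were below the lowest rich cell, and 1, in well F4, was above the rich median. For the dominant features the order of the medians turned between the identifier series described further on, with 9.11 in low and 10.5 in rich cells of series p0002 and 7.27 and 4.70 in series p0003, while for the other features the rich median was 7.32 and 15.6 times the low one. Reads per spike-in read compare between wells only with equal amounts of spike-in, which was not tested. Whether less RNA was present, less was converted, less was amplified or spike-in amounts differed cannot be told apart.

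**Figure D2:**
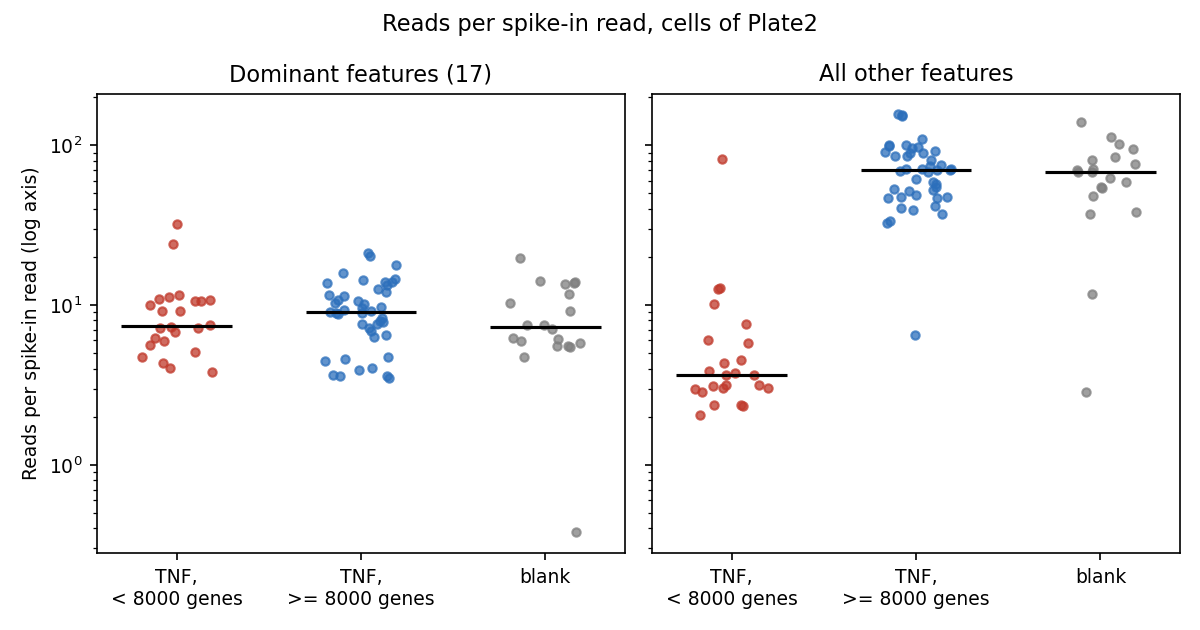
Reads per spike-in read (log axis) in the 17 dominant features (left) and in all other features (right) for the cells of Plate2. The dominant features were chosen for higher CPM in low cells. Points are cells and bars are medians. The groups share a range on the left, with medians of 7.38, 9.10 and 7.30, and separate on the right, with medians of 3.64 in low and 70.2 in rich cells, apart from the low cell at 82.5 and the rich cell at 6.52.

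The makeup of the dominant reads differed between the groups, more for some features than for others. ENSMUSG00000106106 took a median of 44.4% of the dominant reads of a low cell, 36.3% of a rich cell and 36.7% of a blank cell. ENSMUSG00000097971 took a median of 11.1% in low, 13.9% in rich and 14.5% in blank cells. In TNF cells of Plate1 the corresponding medians were 39.7% and 8.70%. Scarcer dominant features differed more: ENSMUSG00000064337 had medians of 0.664% in low and 0.304% in rich cells, and ENSMUSG00000037443 0.245 and 0.464%. ENSMUSG00000113136 had 1.95% in low and 2.73% in rich cells, but 0.0372% in TNF cells of the other experiment.

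The cells that crossed these patterns are few and can be named by well. The low cell in F4 had 27.9% of gene reads in dominant features and 82.5 other reads per spike-in read, inside the range of rich cells. Its low count of detected genes (6370) went with 241824 gene reads, fewer than in any rich cell. The rich cell in C8 had 54.6% dominant reads, a spike-in share of 6.50% and 6.52 other reads per spike-in read, inside the range of low cells, with 8519 detected genes. Of the 2 blank cells under the line, H3 (6933 detected genes) had 49.9% dominant reads, and F2 (3836 detected genes) had only 11.7%, with 23.6% of its reads from spike-ins. Apart from F4, the lowest dominant share among low TNF cells was 42.5%, in well G7. The rich cell in C8 and the blank cell in H3 were above that as well.

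Low cells were unevenly placed on the plate. In columns 4 to 8, 6 of 39 TNF cells were low, or 15.4% (exact 95% interval 5.86 to 30.5%). In columns 9 to 12, 18 of 29 were low, or 62.1% (exact 95% interval 42.3 to 79.3%). The column split was chosen after the data were seen. By plate row, the share ran from 12.5% in row A to 55.6% in row G, with 8 or 9 TNF cells per row. The authors' cell identifiers fall into series whose meaning the sources used here do not give, and the split follows them as well: 4 of 33 TNF cells of series p0002 were low, and 20 of 35 of series p0003. All 33 cells of p0002 sat in columns 4 to 8 and 29 of the 35 cells of p0003 in columns 9 to 12, so position and series are largely confounded. The 6 cells of p0003 in columns 4 to 8 held 2 low cells, or 33.3% (exact 95% interval 4.33 to 77.7%), too few to tell position and series apart. Blank cells sat in columns 1 to 4. Inside series p0003 low and rich cells stood apart too, with median dominant shares of 69.7% in 20 low and 9.19% in 15 rich cells and spike-in shares of 8.81 and 1.83%. Inside series p0002 the dominant shares were 44.3% in 4 low and 11.9% in 29 rich cells and the spike-in shares 5.50 and 1.16%. What the plate position contributed was not tested.

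**Figure D3:**
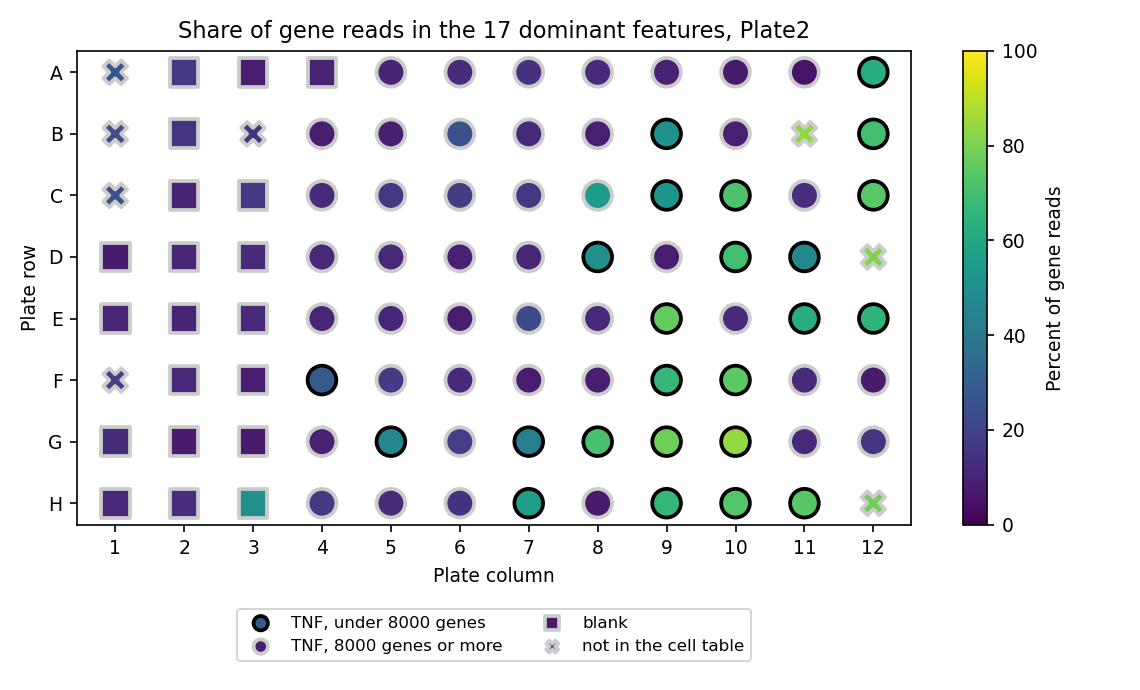
Map of Plate2 by plate row and column, coloured by the percent of gene reads in the 17 dominant features. Circles with a black edge are low TNF cells, other circles rich TNF cells, squares blank cells and crosses wells that are not in the cell table; low cells lie mainly in columns 9 to 12, and 3 crosses in columns 11 and 12 have shares of 78.2 to 83.5%.

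Across single features, the comparison of summed reads depended on the scale. Of 6984 features with at least 20 CPM in either group, 173 (2.48%) were at least 2-fold higher in low cells and 4438 (63.5%) at least 2-fold lower, with a median log2 ratio of -1.31. These shares describe the contrast that chose the cells, and no test was run. With TMM factors, which centre the bulk of features, 841 were higher and 1341 lower, so that 38.5% of features past 2-fold were higher against 3.75% by CPM. Per spike-in read, 6887 of the same 6984 features were at least 2-fold lower in low cells and 19 at least 2-fold higher, with a median log2 ratio of -3.82. Of the 17 dominant features, 16 were within 2-fold on that scale, and of the 6967 others 62 were. The dominant features were chosen for higher CPM in low cells, which places them above most others on this scale too. Their contrast with the others is thus a description. Since the counts differ by scale, directions below are given within the reads outside the dominant features, where the median log2 ratio was -0.09.

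Within those reads, which summed to 4915346 in low and 68959224 in rich cells, 7908 features had at least 20 CPM in either group. Of these, 1335 (16.9%) were at least 2-fold higher and 1290 (16.3%) at least 2-fold lower in low cells. Many rest on few cells, and the rule for named features was stricter. It asked for a read in at least 50% of the cells of the higher group after thinning, no cell with more than 25% of the group's reads, and a 2-fold difference in the same direction in the mean over cells and with the line at 7000 and at 9000 genes. Of 1855 features that could pass as higher, 133 (7.17%) passed, and of 6018 that could pass as lower, 167 (2.78%) passed. By CPM of all gene reads the same conditions passed 45 of 1897 (2.37%) as higher and 1760 of 6722 (26.2%) as lower.

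The 133 higher features took 2.27 to 12.97% of the reads outside the dominant features in low cells, median 10.03%, and 1.18 to 5.79% in rich cells, median 1.58%. Among cells that had no part in the choice, medians were 1.57% (blank, Plate2), 1.44% (TNF, Plate1) and 2.26% (TNF, other experiment), close to the rich cells. The highest blank cell of Plate2 had 6.95%, above every rich cell. The 4 wells of Plate2 outside the cell table with at least 30000 such reads had 1.71 to 17.1%, median 14.2%. Per spike-in read, 8 of the 133 were at least as high in low as in rich cells, and the median log2 ratio was -1.54. The other 125 were lower on that scale. Beside them, 41 of the 6984 features with at least 20 CPM of gene reads were higher in low cells per spike-in read, with a median of -3.82. The 133 were chosen for higher levels in low cells, so this contrast is a description.

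The largest ratio among them was that of ENSMUSG00000065037. It had 652 reads in the summed low cells, 133 CPM of the reads outside the dominant features (exact Poisson 95% interval 123 to 143), and 336 reads or 4.87 CPM in rich cells (4.37 to 5.42), a log2 ratio of 4.51. After thinning to 30000 such reads it was read in 20 of 24 low and 3 of 44 rich cells, and in 2 of 20 blank cells. Per spike-in read it was higher in low cells too, by a log2 ratio of 1.14. Its Poisson intervals cover counting error of reads only, not the spread between cells. ENSMUSG00000059970 followed, at 297 CPM in low and 12.3 CPM in rich cells, a log2 ratio of 4.48, with a read in 19 of 24 low and 11 of 44 rich cells after thinning. Its level varied between low cells, from 0 to 1550 CPM, and reached 190 CPM in rich cells and 126 CPM in blank cells, so the groups overlapped.

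The 167 lower features took 0.267 to 1.63% of the reads outside the dominant features in low cells, median 0.623%, and 0.874 to 3.08% in rich cells, median 2.06%. Blank cells of the plate had a median of 2.51%. ENSMUSG00000047710 had 4 reads in all low cells together, from 3 cells, and 3686 in rich cells, from 43 of 44. That is 0.814 CPM (exact Poisson 95% interval 0.222 to 2.08) against 53.5 CPM (51.7 to 55.2), a ratio of 65.7 between rich and low (exact 95% interval 25.6 to 241). ENSMUSG00000002550 had 3 reads in low cells and 2709 in rich cells, a ratio of 64.4 (exact 95% interval 22.001 to 312). These intervals cover counting error of reads only, not the spread between cells, and both features were named for their ratios in these same cells. In blank cells the first was at 54.7 CPM and the second at 53.8 CPM, near the rich cells. In low cells they were read in 3 and 2 of 24 cells.

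Detection was lower in low cells in all abundance classes under 1000 CPM. Low cells were chosen for few detected genes and the classes were set by rich cells alone, so this direction is a description. With each cell thinned to 30000 reads outside the dominant features, low cells had 3204 to 5281 detected features, median 4025, and rich cells 5251 to 6364, median 5992, and 23 of 24 low cells lay below the lowest rich cell. For the 2396 features at 20 to 50 CPM in rich cells, the median feature was read in 25% of low and 52.3% of rich cells. At 50 to 100 CPM (2135 features) the values were 41.7 and 77.3%, at 100 to 300 CPM (1943 features) 66.7 and 93.2%, and at 300 to 1000 CPM (522 features) 91.7 and 100%. The 83 features at 1000 CPM or more were read in 100% of the cells of both groups by this median. Median log2 ratios ran from -0.11 in the lowest class to -0.58 in the highest.

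**Figure D4:**
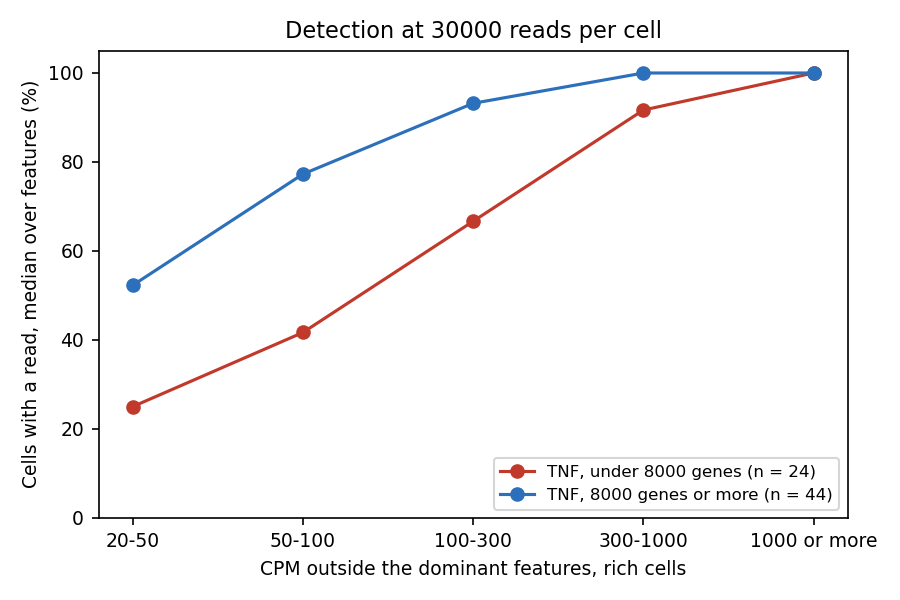
Percent of cells with a read, as the median over features, by abundance of the feature in rich cells (CPM of reads outside the dominant features). Cells were chosen by detected genes and classes were set by rich cells alone, so the direction is a description. Cells were thinned to 30000 such reads; low cells (red) lie below rich cells (blue) in the 4 lower classes, from 25% against 52.3%, and both reach 100% in the highest.

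Single low cells had a lower median rank correlation with the summed TNF cells of Plate1 than rich cells had. Over 7314 features with at least 20 CPM in the summed TNF cells of Plate1, the Spearman correlation of a thinned cell with that sum was 0.313 to 0.543 in low cells, median 0.409. It was 0.478 to 0.696 in rich cells, median 0.639, and the median of blank cells was 0.638. These are correlations across features, which are not independent replicates, and low, rich and blank cells all share an experiment with the reference. After thinning, low cells still had fewer detected features, the trait that chose them. The part of this in the correlations was not tested, so they are a description. Summed over cells, low cells reached 0.707 and rich cells 0.928, with 4915346 and 68959224 reads behind the sums.

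Features that were higher under TNF on the other plates had, as a share of the reads outside the dominant features, a higher median in low cells than in blank cells. A set of features was defined on the other 2 plates, within the reads outside the dominant features, which were themselves chosen on this plate. It held features at least 2-fold higher in TNF than in blank cells on both of the other plates. They also had at least 20 CPM and a read in at least 50% of TNF cells on both. Of 6995 features that met the level, 159 (2.27%) qualified and are called TNF-high. Of 6806 tested in the other direction, 24 (0.353%) qualified. The summed level of the TNF-high set, as a share of reads outside the dominant features, was 1.79 to 5.85% in low cells, median 2.73%, and 0.614 to 8.99% in rich cells, median 2.92%. Blank cells of Plate2 had 0.500 to 3.15%, median 1.28%. All 24 low cells and 39 of 44 rich cells were above the blank median, and all 24 low cells lay within the range of rich cells. Above the highest blank cell were 9 of 24 low and 20 of 44 rich cells, so both groups overlapped with blank cells.

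On other scales that order differed. As a share of all gene reads, the TNF-high set had medians of 0.932% in low, 2.56% in rich and 0.911% in blank cells, so low cells were close to blank cells. Per spike-in read the medians were 0.0994 in low, 2.14 in rich and 0.847 in blank cells, so low cells were below blank cells.

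**Figure D5:**
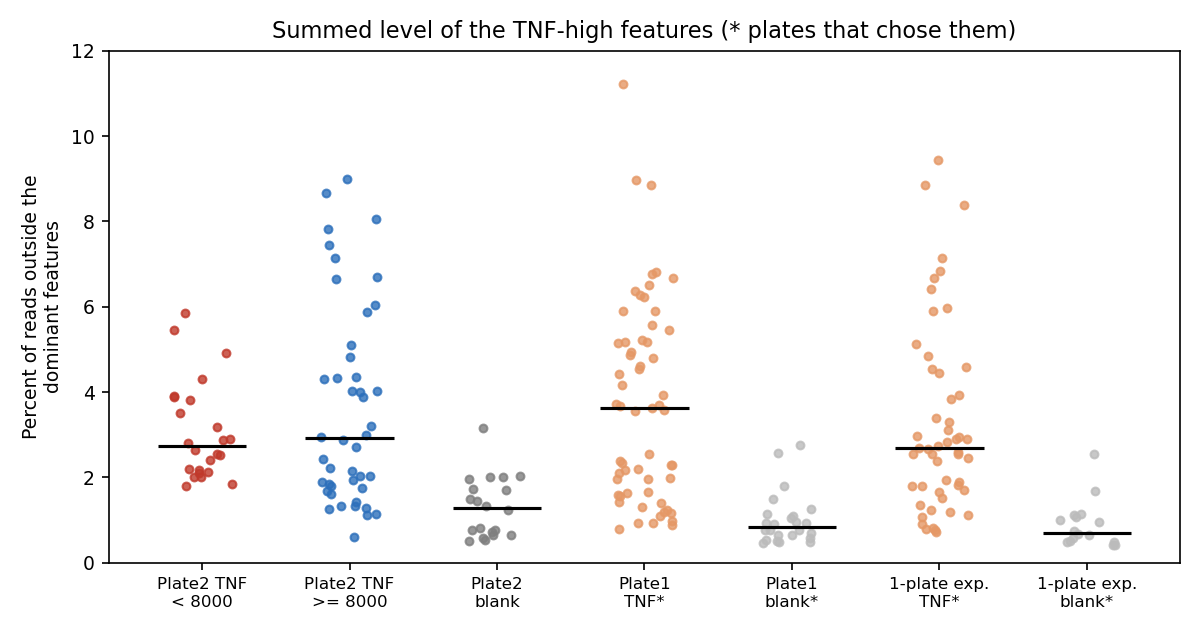
Summed level of the 159 TNF-high features per cell, as a percent of reads outside the dominant features, on the plate described here and on the 2 plates that chose the set (starred). Points are cells and bars are medians; low and rich TNF cells have medians of 2.73 and 2.92%, and blank cells of Plate2 1.28%.

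Feature by feature, 96 of the 159 were at least 2-fold higher in low than in blank cells of Plate2 and 5 at least 2-fold lower, with a median log2 ratio of 1.25. In the same comparison 1463 of 8079 features (18.1%) were higher and 1706 (21.1%) lower. In rich against blank cells, 101 of the 159 were higher and 0 lower, with a median of 1.27, beside 267 of 7509 features (3.56%) higher and 192 (2.56%) lower. Both comparisons share the blank cells. Of the 24 features of the opposite set, 8 were at least 2-fold lower in low cells and 6 in rich cells, with medians of -0.47 and -0.54. Directly between low and rich cells, 24 of the 159 were at least 2-fold higher and 26 lower, beside 16.9% higher and 16.3% lower over all features, so the set was near the background. Its median log2 ratio was -0.19 against -0.09 over all features.

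The most abundant TNF-high feature, ENSMUSG00000024661, was at 1885 to 15931 CPM of reads outside the dominant features in low cells, median 3892. In rich cells it was at 1426 to 23560 CPM, median 5691, and in blank cells at 619 to 7646 CPM, median 2062. One low cell held 26.9% of its low reads. ENSMUSG00000069516 was at 0 to 13277 CPM in low cells, median 1120, at 12.0 to 27364 CPM in rich cells, median 1814, and at 113 to 3093 CPM in blank cells, median 706. Both features overlapped between all 3 groups.

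By the authors' classes of NfkB behaviour under the microscope, low cells came from every class that TNF cells of this plate had. Low cells were non-responsive in 6 of 24, oscillatory in 5, sustained in 1, transient in 7 and unclear in 5. Rich cells were non-responsive in 5 of 44, oscillatory in 9, sustained in 2, transient in 21 and unclear in 7. Transient cells were 29.2% of low (exact 95% interval 12.6 to 51.1%) and 47.7% of rich cells (32.5 to 63.3%), and non-responsive cells 25% (9.77 to 46.7%) and 11.4% (3.79 to 24.6%). These intervals overlap, and the oscillatory shares were 20.8 and 20.5%.

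Within classes the ranges of the TNF-high set overlapped between low and rich cells. In transient cells its median was 2.17% in 7 low and 1.88% in 21 rich cells, and in non-responsive cells 2.54% in 6 low and 4.02% in 5 rich cells. Oscillatory cells had 3.81% in 5 low and 6.04% in 9 rich cells. Oscillatory cells were above transient cells by these medians in both groups. The dominant share was high in low cells of each class, with medians of 53.8% in non-responsive, 62.6% in oscillatory, 70.99% in transient and 74.1% in unclear cells.

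By the authors' cell cycle phases, the share in G1 was higher and that in G2M lower in low cells, with overlapping intervals. Low cells were in G1 in 12 of 24, or 50% (exact 95% interval 29.1 to 70.9%), and rich cells in 11 of 44, or 25% (13.2 to 40.3%). In G2M were 5 low cells, or 20.8% (7.13 to 42.2%), and 23 rich cells, or 52.3% (36.7 to 67.5%). In S were 29.2% of low and 22.7% of rich cells. The G1 score, a fraction, had a median of 0.576 in low and 0.00824 in rich cells, and the G2M score 0.246 and 0.579.

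The phase shares were set beside a call at equal depth. The cyclone classifier of scran, which compares pairs of genes within a cell by Ensembl identifier, matched the authors' phase in 62 of the 68 cells when run on all gene reads. With every cell thinned to 30000 reads outside the dominant features, it matched the authors' phase in 58 of 68 cells and placed 13 of 24 low cells, or 54.2% (exact 95% interval 32.8 to 74.4%), and 12 of 44 rich cells, or 27.3% (14.96 to 42.8%), in G1. In G2M it placed 4 low and 19 rich cells. At this depth rich cells were still read in more features than low cells, and the part of that difference in the phase calls was not tested. Among the 5 low and 6 rich cells with overlapping gene reads, 20% of low and 16.7% of rich cells were in G1 by the authors' phase, and 40% and 33.3% in G2M, so the difference in phase shares was not seen among these few cells.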

How the data were processed

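Deposited counts are whole reads per Ensembl feature and cell, made by the authors with SAMtools, Subread 1.5.0 and featureCounts, per the submitters' processing notes. The genome build, the annotation and whether strand was used are not named by the sources used here. Without molecular identifiers, a read is not 1 independent molecule. Stimulus, response class, phase and phase scores (fractions) come from the authors' deposited cell tables, and how they were made is not given. Columns were matched to samples by well and plate, and 357 unmatched columns were not used. No column repeated another (0 identical).

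The 92 spike-in features were kept out of gene reads. Gene reads per cell ranged from 182301 to 2553337 in the 68 cells. Reads were summed per group, scaled to CPM and compared as log2(CPM + 1), with at least 20 CPM in a group and a 2-fold line. Thinning drew reads without replacement to 200000 gene reads, or to 30000 outside the dominant features. Named features followed the rule given in the text, applied also to the scale outside the dominant features, which was added afterwards, and were limited to 2 per direction since names could not be paired. Python 3.11.15, numpy 2.4.6, scipy 1.17.1, R 4.3.3, scran 1.30.0 and edgeR 4.0.16 (TMM factors only) were used, and the ratio counts were tested on simulated data. Simulated reads followed the proportions of cells with at least 8000 detected genes, so the concentration of reads in low cells was not covered. No p-value was computed. The members and lists were chosen with earlier results of these data known. Alternatives covered the line, the depth, the scale, the filter, the pseudocount, the identifier series and the leaving out of 1 low cell.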

Additional observations from a re-analysis of the deposited data

Results flagged for a closer look

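On Plate2, 3 wells that the cell table does not list had dominant shares above those of all blank cells of the plate, whose highest was 49.9%: 83.5% in B11, 81.1% in D12 and 78.2% in H12. They had 3047, 3044 and 4156 detected genes, where the lowest low cell had 3672, and spike-in shares of 7.56 to 8.65%, inside the range of low cells. What they hold is not given by the labels.

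Sets of 4 to 10 cells sharing a group and a class or phase were examined in 4 measures, 44 combinations in all. In 4 of these, from 3 sets, 1 cell lay far from the others. The measures are not independent, and how many such flags chance would give was not tested. Among the 5 low cells of unclear response, 1 had a dominant share of 27.9%, far under the rest (well F4). Among the 10 rich cells in S phase, 1 had a spike-in share of 6.50% and a dominant share of 54.6%, far above the rest (well C8). Among the 7 blank cells in G1, 1 had a dominant share of 17.02%, above the rest.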

How the results depend on the processing

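The number of low cells ran from 22 (line at 7000 genes) to 34 (detection at 5 reads). As a share of reads outside the dominant features, the median TNF-high level moved by less than the spread between cells in all settings run. Other scales, given above, were not part of these settings. The low median was below the rich one in the main setting but above it in 3 others. These were the shared read range (2.90 and 2.12%), series p0002 (3.60 and 2.99%) and series p0003 (2.59 and 2.21%). Other reads per spike-in read of low cells had a median of 10.2 in the shared read range and 10.1 in series p0002 against 3.64, within the SD over all low cells (16.2) but not over those without the F4 cell (3.13). Their median spike-in share was 4.59% in the shared read range against 7.62%, a move larger than the SD without that cell (2.88). By CPM 173 features were higher and 4438 lower. Recounted in each setting over the features that reached the level there, the counts were 841 and 1341 with TMM factors, 1 and 8361 with spike-in scaling (where the 20 CPM level was also applied after scaling, unlike the 19 and 6887 over the features chosen by CPM), 1237 and 6758 at 1 CPM or more, 54 and 1598 at 100 CPM or more, 1335 and 1290 outside the dominant features, and 108 and 1953 with the line at 9000 genes. Higher features were 110 with a pseudocount of 10, 479 in the shared read range, 276 in transient cells only and 441 in identifier series p0002. The dominant share of low cells was 46.7% in the shared read range and 44.3% in series p0002, and dominant reads per spike-in read of rich cells were 4.70 in series p0003. In the shared read range (5 low and 6 rich cells) 66.7% of rich cells were transient, 0% non-responsive and 0% oscillatory, 20% of low cells were in G1 and 33.3% of rich cells in G2M. In series p0002 (4 low cells) 0% of low cells were transient and 50% non-responsive, and in series p0003 6.67% of rich cells were oscillatory. The cause was not tested. Settings for mitochondrial and ribosomal shares and gene lists were not run, since identifiers were not paired with names. The column split, series p0002 and p0003, the F4 cell left out, the scale outside the dominant features and cyclone were chosen after seeing the data. No paired analysis was possible because each group is 1 sample. Depth limits scarce features: a count of 0 over the low cells allows up to about 3 reads, as a 1-sided 95% limit, unlike the exact intervals above.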
